A study of Mus musculus with 16 samples.

Results

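Peritoneal macrophages of the mouse that were given oxidised low-density lipoprotein (ox-LDL) in high glucose medium (group H_O) were compared with macrophages kept in high glucose medium alone (group H_C), over every gene entry of the count table. The members are the 4 libraries of H_O and the 4 of H_C, taken by their labels, 8 of the 16 libraries of the series. The cells came from wild-type C57BL/6 mice aged 8 weeks, into whose peritoneal cavity macrophages had been drawn by soluble starch at 6%, and they were then held in DMEM with serum and antibiotics. H_C cells had glucose at 33 mmol/L for 48 h. H_O cells had the same glucose with ox-LDL for 48 h, at a dose that the labels write as 50 mg/ml, a unit that is in doubt. The other 8 libraries, used here for the shared estimate of the spread and for a test of the difference, were from low glucose with 27.5 mM mannitol as osmotic control (L_C, 4 libraries) and low glucose with ox-LDL (L_O, 4 libraries), for which the label names no mannitol. As labelled, H_O and H_C differ in ox-LDL alone. Neither the number of mice behind a library nor any pooling is given, and no label ties replicates to separate animals or cultures, so the p-values measure the spread between these libraries, which may be technical.

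Ox-LDL enters macrophages through scavenger receptors, and the lysosome splits its cholesteryl esters into free cholesterol and fatty acids. Cholesterol that reaches the endoplasmic reticulum holds back the factor SREBP2, which drives cholesterol synthesis, and oxysterols switch on the LXR receptors, which drive cholesterol export. Fatty acids and their oxidised forms are ligands of the PPAR receptors, and reactive lipids free the factor NRF2 from its anchor KEAP1. Macrophages laden with lipid droplets are the foam cells of the atherosclerotic plaque, and arterial disease is more frequent in diabetes, in which glucose is raised. The title of the study names atherosclerosis under high glucose as its subject.

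Library totals of the 8 libraries lay between 33369823 and 39305957 counts. On the first principal component of all 16 libraries, with 42.9% of the variance, the H_C libraries lay between -13.5 and -10.2 and the H_O libraries between 13.7 and 17.4. Every pair of replicates differed by more than sampling noise, with chi-square per degree of freedom of 7.03 to 12.02 in H_C and 9.604 to 18.95 in H_O, the 3 highest of H_O in pairs with replicate 2. That library stood apart from the other H_O libraries in genes of antigen presentation and interferon, and values without it are given where they matter. H_C replicate 3 had the highest summed level of 12 markers of mesothelial cells and fibroblasts among the 8, at 224 CPM, against 43.1 to 51.6 in the other H_C libraries and 40.8 to 113 in H_O. Among the low glucose libraries L_C replicate 4 stood apart, with mitochondrial genes at 3.71% of counts, and it enters the estimate of the spread. Ribosomal protein genes took 1.83 to 1.98% of counts in H_C and 1.67 to 1.75% in H_O, without overlap (exact permutation test, two-sided p = 0.0286, the smallest that 4 against 4 allows). Markers of all macrophages were present throughout, with a summed level over 9 genes of 18609 to 19059 CPM in H_C and 19438 to 20961 CPM in H_O.

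In all, 1406 entries (10.4% of the 13527 tested) were higher with ox-LDL and 1556 (11.5%) were lower. Here and below a gene is said to have risen or fallen where the edgeR quasi-likelihood test gave a Benjamini-Hochberg adjusted p below 0.05 over all tested entries. Most of these changes were small: the median absolute log2 fold change of the called entries was 0.372, and 170 entries (1.26%) rose and 195 (1.44%) fell by at least 2-fold. The split depends on the scaling, since with no scaling beyond library totals 2176 rose and 1166 fell, or 65.1% of calls higher against 47.5%, and the median log2 fold change of all entries was 0.0738 instead of 0.00894. Levels are given in CPM, the counts relative to the scaled size of the library, for replicates 1 to 4 in turn, and changes are log2 fold changes of H_O over H_C ± the standard error of the fit, with 4 libraries per group. Lack of overlap between the libraries was common over the whole table. All H_O libraries lay above all H_C libraries in 1996 tested entries (14.8%) and below them in 1998 (14.8%). The RNA is that of bulk samples, so fewer cells of a type and less RNA per cell cannot be told apart. In the plot of gene lists, sterol synthesis, class I antigen presentation and interferon genes lean to the lower side and DNA replication, glutathione and amino acid genes to the higher side.

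**Figure D1:**
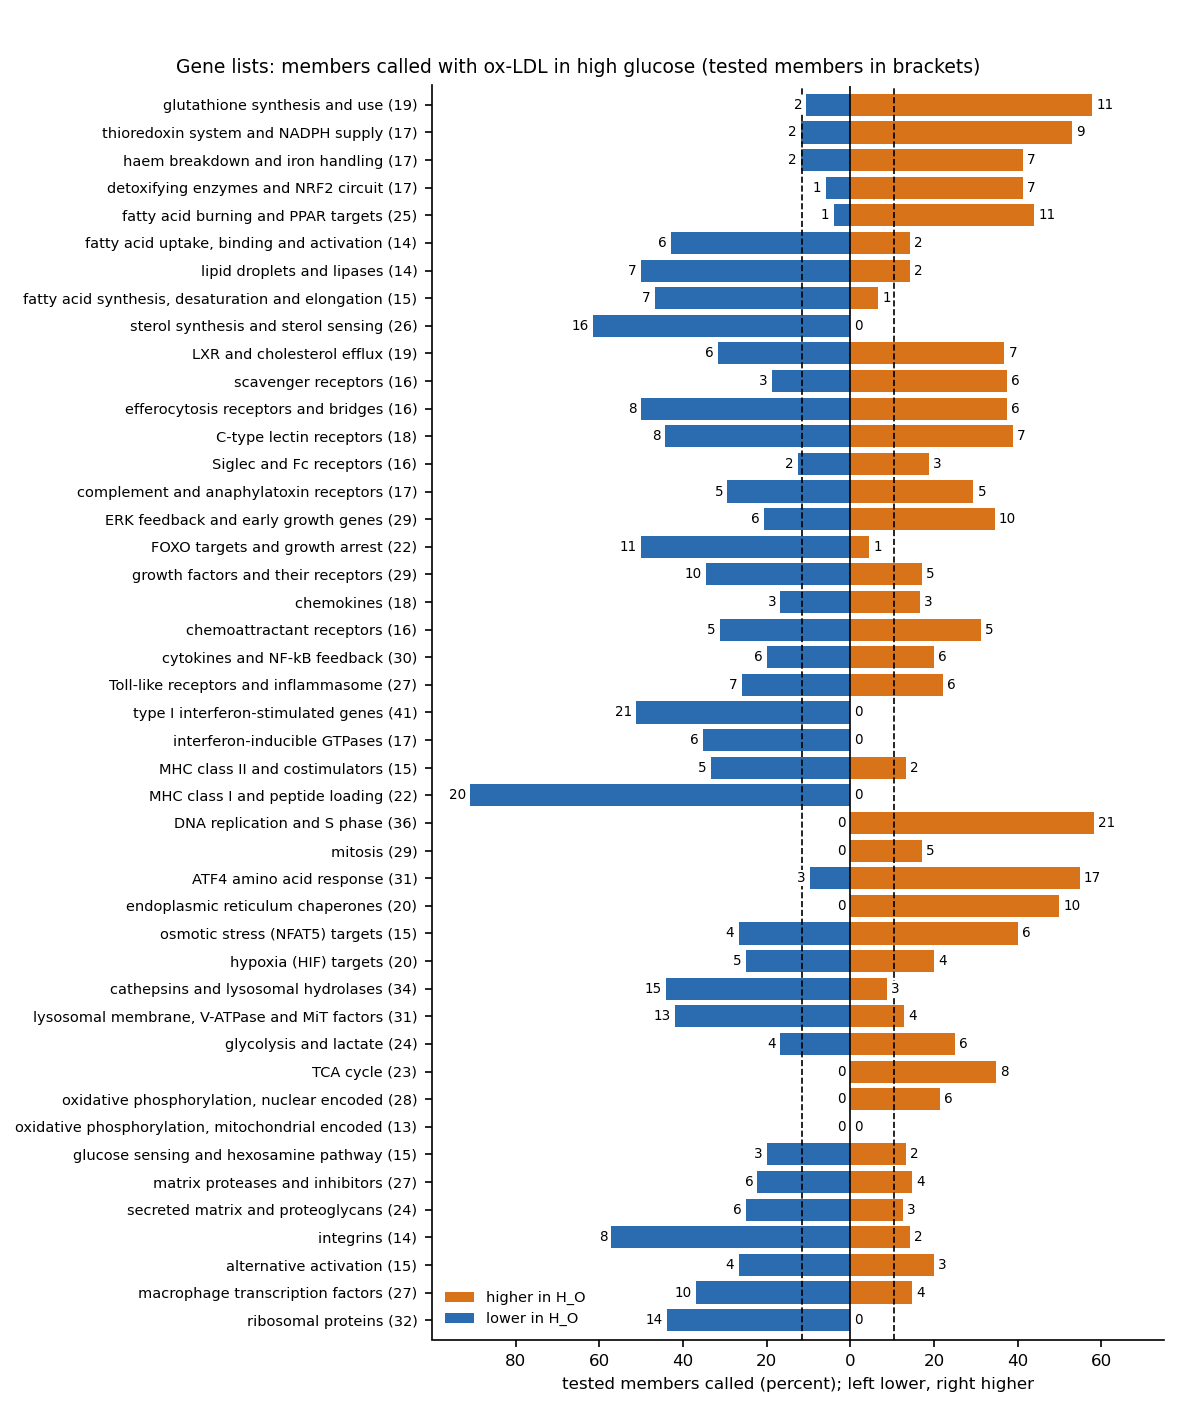
Share of the tested members of each gene list (percent, x axis) that were called higher (right, orange) or lower (left, blue) in H_O than in H_C, with the numbers of members at the ends of the bars. The dashed lines give the share of all 13527 tested entries, 10.4% higher and 11.5% lower.

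The largest rises included those of secreted and surface proteins and of feedback inhibitors of ERK signalling. Angptl4, a secreted inhibitor of lipoprotein lipase that PPAR receptors drive (chr17:33773750-33781830, minus strand in mm10), stood at 1.31, 2.16, 2.87 and 2.84 CPM in H_C and at 32.8, 37.3, 37.8 and 32.9 CPM in H_O, and so rose by 3.93 ± 0.21 (adjusted p = 2.33e-10). Clec4n, which encodes the fungal receptor Dectin-2 (chr6:123229843-123247021, plus strand), read 7.72, 7.91, 7.78 and 8.62 CPM without ox-LDL and 68.2, 76.7, 63.6 and 62.3 CPM with it, a rise of 3.08 ± 0.08. For both genes the lowest H_O library lay several times above the highest H_C library. Hal, whose enzyme starts the breakdown of histidine, went from 5.49, 4.41, 4.096 and 4.67 CPM to 38.7, 31.6, 35.6 and 35.2 CPM (2.92 ± 0.10). Tgfbi, a matrix protein that TGF-beta induces, went from 18.6, 22.1, 24.6 and 21.7 CPM to 87.5, 121, 106 and 88.4 CPM (2.21 ± 0.15), and H_O replicate 2 was again the highest. Mmp8, a collagenase better known from neutrophils, had the widest spread of these, with 29.5, 44.7, 30.9 and 23.9 CPM in H_O against 4.57, 5.29, 4.199 and 5.37 CPM in H_C (2.73 ± 0.26). None of these groups of libraries overlapped, which the rule that picked the genes required. Further rises were those of the endothelin receptor gene Ednrb (1.82 ± 0.09), the organic anion transporter gene Slco4a1 (1.81 ± 0.21), the kinase gene Plk3 (1.70 ± 0.12) and Gas6 (1.65 ± 0.05), a bridging protein that AXL and MERTK recognise on dying cells.

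The largest falls included other secreted and surface proteins, picked by the same rule, so that lack of overlap was again required. Mamdc2, a proteoglycan with MAM domains (chr19:23302609-23448442, minus strand), fell from 263, 259, 242 and 264 CPM to 43.2, 28.4, 38.8 and 47.6 CPM (-2.70 ± 0.12, adjusted p = 2.24e-11). Sdc1, the heparan sulphate proteoglycan syndecan-1 (chr12:8771323-8793715, plus strand), fell from 331, 316, 331 and 315 CPM to 89.6, 88.7, 94.9 and 95.1 CPM (-1.81 ± 0.11). Dio2, which encodes the deiodinase that makes active thyroid hormone (chr12:90724552-90738438, minus strand), read 267, 279.6, 281 and 291 CPM in H_C and 91.4, 89.4, 85.7 and 93.5 CPM in H_O (-1.63 ± 0.05). In each of these the H_C libraries lay within a narrow band far above all H_O libraries. Acod1, the itaconate-forming enzyme of activated macrophages, had a library that stood apart: H_C libraries stood at 107, 106, 151 and 124 CPM and H_O libraries at 21.9, 85.96, 28.6 and 20.8 CPM, so that H_O replicate 2 lay close to the lowest H_C library. The change of Acod1 was -1.63 ± 0.35 with all libraries and -2.36 ± 0.23 without H_O replicate 2. Other falls without overlap were those of the serine protease gene Htra1 (-1.82 ± 0.11), the kinase gene Plk2 (-1.70 ± 0.07), the alpha-1A adrenergic receptor gene Adra1a (-1.64 ± 0.11), the receptor genes Slamf8 (-1.64 ± 0.12) and Ccrl2 (-1.63 ± 0.08), the latter of which binds the chemoattractant chemerin, and Siglecf (-2.07 ± 0.13), a sialic acid receptor.

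**Figure D2:**
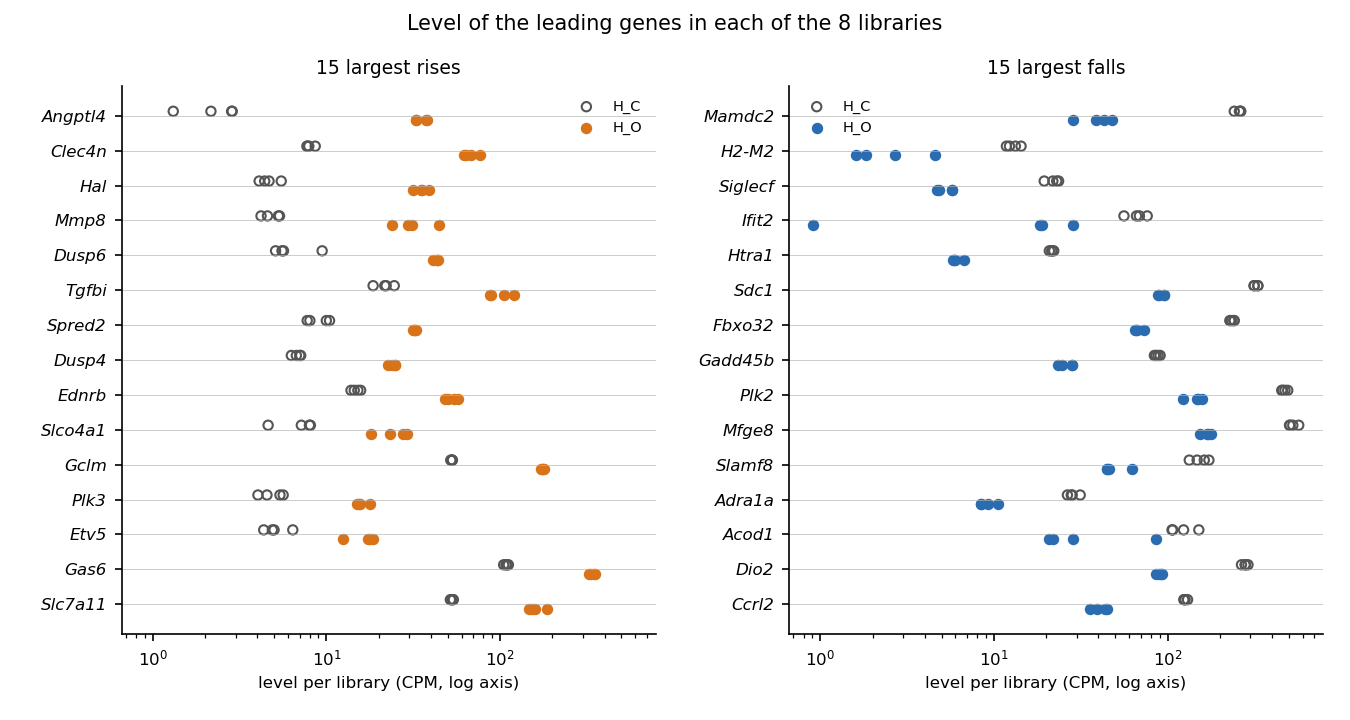
Level in each library (CPM, log axis) of the 15 genes with the largest rises and the 15 with the largest falls by the naming rule, with H_C as open circles and H_O as filled circles. The groups do not overlap for any of them, which the rule required, and Ifit2 and Acod1 have the widest spread in H_O.

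Genes for the burning of fatty acids rose more often than they fell. Of 25 tested members of that list, which includes PPAR targets, 11 rose and 1 fell, or 2 with the 8 libraries alone or without L_C replicate 4, with a median log2 fold change of 0.241. Cpt1a, the carrier step that admits fatty acids to mitochondria, stood at 107, 104, 112 and 112 CPM in H_C and 302, 291, 306 and 288 CPM in H_O (1.45 ± 0.05). The beta-oxidation genes Acaa2 (0.67 ± 0.07) and Acadl (0.52 ± 0.06) and the thioesterase genes Acot1 (2.22 ± 0.42) and Acot2 (0.82 ± 0.15) also rose. Reads of Acot1 and Acot2 may be split with near copies, since 19.2% and 27.7% of their 50-base stretches occur in other transcripts. The member that fell was Pparg, the gene of a PPAR receptor itself, from 88.6, 81.9, 78.2 and 84.7 CPM to 48.3, 41.02, 46.5 and 44.6 CPM (-0.89 ± 0.07). Its level in every H_O library was below that in every H_C library.

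Genes for the uptake, binding and storage of fatty acids moved unevenly. Of 14 genes of uptake, binding and activation, 2 rose and 6 fell. Cd36, a scavenger receptor that also carries fatty acids, rose from 1554, 1531, 1489.6 and 1591 CPM to 4599, 3852, 4188 and 4422 CPM (1.47 ± 0.06), while Fabp4, the fatty acid carrier of macrophages and fat cells, fell from 335, 326, 324 and 307 CPM to 181, 186, 193 and 193 CPM (-0.78 ± 0.05). Thus 2 genes usually named together as PPAR gamma targets moved in opposite directions. Of 14 genes of droplets and lipases, the 2 that rose were Plin2 (0.81 ± 0.07), the coat of the droplet, and Hilpda (0.77 ± 0.12), an inhibitor of the lipase ATGL. The 7 that fell included the lipase genes Mgll (-0.95 ± 0.05), which splits monoacylglycerol, and Pnpla2 (-0.30 ± 0.08), which encodes ATGL, and Soat1 (-0.28 ± 0.03), which esterifies cholesterol. With no scaling beyond library totals 3 members of that list fell. Of 15 genes of fatty acid synthesis and desaturation, 7 fell and 1 rose, with Acss2 (-1.06 ± 0.14), Scd2 (-0.62 ± 0.10) and Fasn (-0.49 ± 0.10) among the falls, which make acetyl-CoA, desaturate fatty acids and build palmitate.

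The cell makes cholesterol from acetyl-CoA in a chain of enzymes that SREBP2 drives together. Of 26 tested genes of sterol synthesis and sensing, 16 fell and none rose, and 25 of 26 had a negative value. Their median was -0.354, against 0.00894 over all entries. Sc5d, a desaturase of the late pathway, stood at 79.3, 73.6, 76.8 and 81.7 CPM in H_C and at 40.1, 42.6, 38.3 and 38.7 CPM in H_O (-0.96 ± 0.08). Hmgcs1 (-0.45 ± 0.06), which acts near the start of the pathway, fell too. Squalene is made and oxidised by the products of Fdft1 (-0.86 ± 0.07) and Sqle (-0.54 ± 0.07), which fell as well. The sensor gene Insig1 (-0.66 ± 0.05) and Srebf2 (-0.30 ± 0.04), the gene of SREBP2, were also lower in every H_O library than in any H_C library. Of the 50-base stretches of Fdft1 26.5% also occur elsewhere, mostly in Ctsb on the other strand. The pathway is shown with a promoter because SREBP2 binds sterol elements: of 19 tested members with a RefSeq promoter window (250 bases before to 50 after the start, GRCm38.p6), Hmgcs1 alone held the core TCACNCCAC on either strand, which 1.436% of all 27025 genes with a window hold. The stretch lies at chr13:119690174-119690262 (plus strand), with the match in capitals.
Hmgcs1: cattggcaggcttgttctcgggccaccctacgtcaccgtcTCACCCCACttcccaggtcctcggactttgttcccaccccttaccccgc

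The list of LXR and cholesterol export genes, whose members do not all act in export, split. Of 19 tested, 7 rose and 6 fell, and with no scaling beyond library totals 3 fell. Abca1, which loads cholesterol onto apolipoprotein A-I, stood at 109, 110.1, 124 and 113 CPM in H_C and at 152, 159.7, 159 and 147 CPM in H_O (0.44 ± 0.06). Mylip, which encodes a ubiquitin ligase, rose from 33.1, 30.8, 32.1 and 29.8 CPM to 54.9, 57.3, 58.6 and 55.1 CPM (0.84 ± 0.05). The phospholipid remodelling gene Lpcat3 (0.67 ± 0.06) and Cd5l (1.22 ± 0.15), a secreted protein of tissue macrophages, rose too. Against these, the exporter gene Abcg1 was lower, at 211, 211, 211 and 211 CPM in H_O against 231, 242, 224 and 248 CPM in H_C (-0.16 ± 0.04), a call lost with no scaling beyond library totals (adjusted p = 0.101). The lipoprotein gene Apoe (-0.30 ± 0.04) and Npc2 (-0.47 ± 0.08), which carries cholesterol out of the lysosome, fell.

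NRF2 drives genes of glutathione, thioredoxin and haem metabolism through antioxidant response elements. The promoter stretches of 3 members that rose and hold the core TGACNNNGC are shown with the match in capitals.
Gclm: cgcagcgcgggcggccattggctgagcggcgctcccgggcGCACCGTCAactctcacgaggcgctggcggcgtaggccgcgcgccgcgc
Prdx1: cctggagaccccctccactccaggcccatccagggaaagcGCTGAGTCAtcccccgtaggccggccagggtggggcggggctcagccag
Txnrd1: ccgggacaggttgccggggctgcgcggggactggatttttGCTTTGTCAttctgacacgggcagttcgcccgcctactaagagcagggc

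These stretches lie at chr3:122245383-122245471 (plus strand), chr4:116685426-116685514 (plus strand) and chr10:82859074-82859162 (plus strand) in GRCm38.p6, from RefSeq, and each match reads on the strand opposite to the gene. Both strands were searched over the windows of 250 bases before to 50 after each start, and 13.99% of all genes with a window hold the core. Of the 16 members of the thioredoxin and NADPH list with a window 7 held it, 6 of them among the 8 that rose. Of the 15 members of the glutathione list 4 did, 2 of them among the 8 that rose. In the list of haem breakdown and iron 3 of 12 held it, 1 of them among the 4 that rose. Another of these was Ncoa4, the only member with a window that fell. In the list of detoxifying enzymes and the NRF2 circuit 4 of 16 did, 2 of them among the 7 that rose. No member that fell held it in the thioredoxin, glutathione or detoxifying list. None of the matches in these lists shared bases with a match to another element searched here. A match describes letters and shows no binding.

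Of 19 tested genes of glutathione synthesis and use, 11 rose and 2 fell, with a median of 0.531. Gclm, the regulatory subunit of the enzyme that starts glutathione synthesis, stood at 52.9, 52.01, 53.2 and 52.7 CPM in H_C and at 178, 176, 171 and 175 CPM in H_O (1.73 ± 0.05, adjusted p = 8.34e-14). Slc7a11, which imports cystine for glutathione, stood at 53.4, 52.7, 53.8 and 51.7 CPM and 153, 185, 146 and 159.5 CPM (1.61 ± 0.07). The replicates of Gclm lay within a few CPM of each other in both groups. Gclc (0.53 ± 0.07), the catalytic partner of Gclm, rose less, as did the glutathione reductase gene Gsr (0.54 ± 0.07), and Abcc1 (1.17 ± 0.06), which exports glutathione conjugates, rose. The members that fell were the peroxidase genes Gpx1 (-0.55 ± 0.04) and Gpx3 (-1.35 ± 0.13).

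In the thioredoxin and NADPH list, 9 of 17 rose and 2 fell. Of the falls 1 was left with no scaling beyond library totals and when H_C replicate 2, H_C replicate 4 or any H_O library but the first was left out. Prdx1, a peroxiredoxin, rose from 838, 816, 816 and 805 CPM to 1659, 1746, 1649.97 and 1659.5 CPM (1.04 ± 0.08), and Srxn1, which repairs peroxiredoxins, from 106, 103, 101 and 106 CPM to 202, 174, 196 and 201 CPM (0.90 ± 0.06). Txnrd1 (0.62 ± 0.05), which reduces thioredoxin, rose, while thioredoxin itself, Txn1, fell from 522, 518, 511 and 493 CPM to 322, 308, 313 and 315 CPM (-0.70 ± 0.06). The pentose phosphate genes G6pdx (0.46 ± 0.06), Pgd (0.61 ± 0.04) and Taldo1 (0.51 ± 0.12), which supply NADPH, rose. G6pdx shares 16.9% of its 50-base stretches with Ikbkg on the other strand.

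Of 17 genes of haem breakdown and iron, 7 rose and 2 fell, and 12 rose without L_C replicate 4 or with the 8 libraries alone. Hmox1, which opens the haem ring, stood at 285, 272, 269 and 272 CPM in H_C and at 547, 559, 599.6 and 540.3 CPM in H_O (1.03 ± 0.06). Genes of iron export and of iron import both rose, namely Slc40a1 (0.97 ± 0.14), which encodes ferroportin, and the transferrin receptor gene Tfrc (0.77 ± 0.08). Ncoa4 (-0.77 ± 0.08), the receptor that takes ferritin to the lysosome, fell. Among detoxifying enzymes and genes of the NRF2 circuit 7 of 17 rose and 1 fell, or 3 without L_C replicate 4 or with the 8 libraries alone, with Cat, which encodes catalase, at 158, 144, 137 and 153 CPM in H_C and 409, 361, 417 and 417 CPM in H_O (1.44 ± 0.10). Nqo1, a quinone reductase, had low counts, at 0.793, 1.34, 0.947 and 1.74 CPM and 4.69, 3.42, 3.49 and 5.39 CPM, and rose by 1.81 ± 0.24. The gene of NRF2 itself, Nfe2l2, was not called (log2 fold change -0.22 ± 0.10, adjusted p = 0.128), although its H_O libraries, at 341, 336, 345 and 334 CPM, were all below its H_C libraries, at 383, 386, 403 and 402 CPM. Without L_C replicate 4 its fall was called (adjusted p = 8.70e-06).

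ERK signalling switches on phosphatases and SPRED proteins that feed back on it. Of 29 tested genes of ERK feedback and early growth response, 10 rose and 6 fell, with a median of 0.355. Dusp6, a phosphatase of ERK in the cytoplasm, stood at 5.09, 5.55, 9.45 and 5.66 CPM in H_C and at 43.3, 43.1, 40.9 and 44.003 CPM in H_O (2.73 ± 0.15), with H_C replicate 3, the library richest in mesothelial and fibroblast markers, highest among controls. Spred2, which blocks the activation of RAF, stood at 7.75, 8.03, 9.98 and 10.4 CPM and 32.3, 31.7, 32.98 and 31.9 CPM (1.83 ± 0.11). Dusp4 (1.82 ± 0.15), Spred1 (0.75 ± 0.06) and the ETS factor gene Etv5 (1.68 ± 0.15) rose, as did Fos (1.41 ± 0.12) and Myc (1.17 ± 0.17). The early genes Egr1 (-1.09 ± 0.21), Egr2 (-0.75 ± 0.07) and Junb (-0.48 ± 0.07) fell, so immediate early genes did not move as a block.

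FOXO factors act in cells deprived of growth signals. Of 22 tested FOXO targets and genes of growth arrest, 11 fell and 1 rose, with a median of -0.305. Fbxo32, a ubiquitin ligase subunit that FOXO factors drive, stood at 233, 241, 228 and 242 CPM in H_C and at 66.9, 65.9, 64.7 and 73.5 CPM in H_O (-1.80 ± 0.07), and Gadd45b at 88.2, 85.8, 83.97 and 90.6 CPM and 23.3, 24.8, 28.3 and 28.2 CPM (-1.74 ± 0.10). The H_O libraries of both genes lay far below the lowest H_C library. Foxo3 (-0.65 ± 0.05) and Klf9 (-0.99 ± 0.09) fell, and the member that rose was Klf2 (0.67 ± 0.12). Among growth factors and receptors 5 of 29 rose and 10 fell, and 3 rose without H_C replicate 1 or without H_O replicate 1. Vegfa fell from 103, 115, 111 and 112 CPM to 52.3, 71.3, 69.7 and 55.5 CPM (-0.83 ± 0.09) and its receptor gene Flt1 from 5.18, 5.61, 6.63 and 3.66 CPM to 0.474, 1.104, 1.61 and 0.861 CPM (-2.38 ± 0.27). The receptor genes Csf1r (-0.46 ± 0.04), needed for macrophage survival, and Csf2rb (-0.72 ± 0.06), shared by the receptors of GM-CSF and IL-3, fell, while Igf1 (0.69 ± 0.06) rose.

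Of 36 tested genes of DNA replication and S phase 21 rose and none fell. The promoter stretches of 3 members that rose and hold an E2F core, TTTGGCG or TTTCCCG on either strand, are shown because E2F factors open S phase, with matches in capitals.
Mcm5: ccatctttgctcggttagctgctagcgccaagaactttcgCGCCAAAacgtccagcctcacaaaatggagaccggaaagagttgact
Mcm6: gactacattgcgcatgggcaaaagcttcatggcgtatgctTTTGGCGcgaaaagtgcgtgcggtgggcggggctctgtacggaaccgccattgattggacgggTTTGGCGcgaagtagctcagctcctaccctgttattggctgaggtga
Mcm7: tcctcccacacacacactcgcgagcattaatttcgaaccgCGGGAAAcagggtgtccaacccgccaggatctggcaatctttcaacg

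They lie at chr8:75109321-75109407 (plus strand), chr1:128359706-128359855 (minus strand) and chr5:138172001-138172087 (minus strand) in GRCm38.p6. Of 30 members with a RefSeq window 14 held such a core, against 5.554% of all genes with a window. Among these 14 were 8 of the 15 that rose. The rest of the 14 were not called, so the core was not particular to members that rose. Mcm6 holds 2 matches, and the matches in Mcm5 and Mcm7 read on the opposite strand. No match in this list shared bases with another element searched here.

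The median of the replication list was 0.423. Without H_C replicate 1, 13 members rose, and with the stricter filter or without H_C replicate 3, H_O replicate 3 or L_C replicate 4, 1 fell. Mcm5, a subunit of the helicase that opens DNA, stood at 7.81, 6.25, 8.58 and 7.89 CPM in H_C and at 12.6, 14.7, 13.2 and 15.1 CPM in H_O (0.87 ± 0.12). Its partner Mcm6 stood at 36.3, 35.7, 34.4 and 33.8 CPM and 45.8, 45.3, 46.2 and 45.8 CPM (0.38 ± 0.05), and Mcm7 rose by 0.31 ± 0.09, which was not called without H_C replicate 1 (adjusted p = 0.0517). E2f2, an activating E2F factor, went from 18.6, 15.7, 18.97 and 19.6 CPM to 30.3, 35.4, 32.5 and 29.1 CPM (0.80 ± 0.11). The H_O libraries of Mcm5, Mcm6 and E2f2 all lay above H_C. Members with few counts also rose, such as Ccne2 (1.65 ± 0.28), the cyclin that starts S phase, Rrm2 (1.44 ± 0.19), which makes deoxynucleotides, the helicase partner Gins1 (1.18 ± 0.17) and Uhrf1 (1.42 ± 0.23), which keeps up DNA methylation. Pcna, the clamp of the polymerase and a common marker of S phase, was not called, with 168, 171, 173 and 165 CPM in H_C and 163, 156, 163 and 164 CPM in H_O (log2 fold change -0.07 ± 0.04, adjusted p = 0.249). Mitosis genes had a median of 0.441, and 5 of 29 rose, or 9 with no scaling beyond library totals. Those called included Top2a, from 6.53, 8.35, 12.6 and 9.89 CPM to 17.5, 19.7, 16.7 and 18.6 CPM (0.95 ± 0.14), Mki67 (0.82 ± 0.19) and Cdk1 (0.83 ± 0.17).

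**Figure D3:**
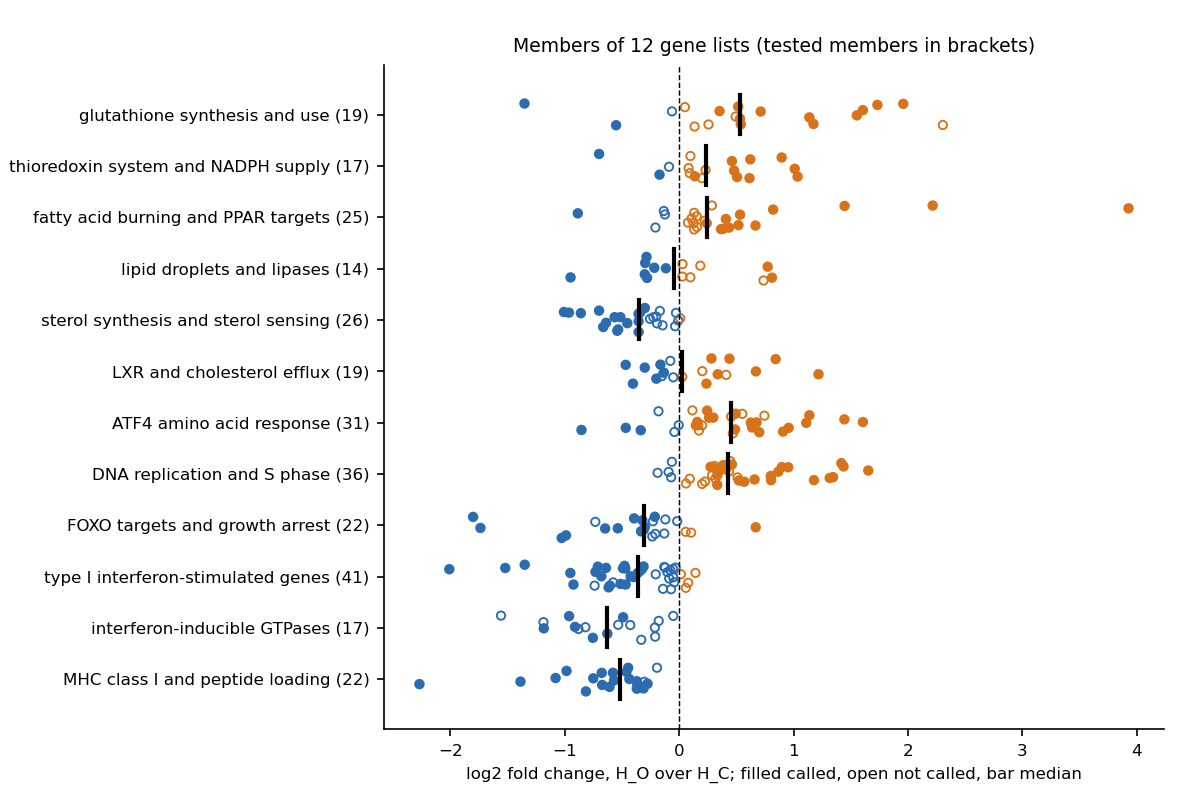
Log2 fold change of H_O over H_C for each tested member of 12 gene lists (x axis), filled where called and open where not, with the median of each list as a black bar. All class I genes and interferon-inducible GTPases lie left of 0, as do 25 of 26 sterol genes and 37 of 41 interferon-stimulated genes, and 32 of 36 replication genes lie right of it.

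The factor ATF4 drives genes of amino acid supply when amino acids are short, and of 31 tested 17 rose and 3 fell. Promoter stretches of 3 members that rose and hold the amino acid response core TGATGNAA are shown, with matches in capitals.
Slc7a11: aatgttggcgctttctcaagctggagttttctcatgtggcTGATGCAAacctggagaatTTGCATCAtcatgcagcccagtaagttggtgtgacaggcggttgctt
Asns: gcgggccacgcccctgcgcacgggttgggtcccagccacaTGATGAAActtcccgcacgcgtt
Chac1: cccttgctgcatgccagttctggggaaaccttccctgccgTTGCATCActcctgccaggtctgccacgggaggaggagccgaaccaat

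They lie at chr3:50443614-50443719 (minus strand), chr6:7693210-7693272 (minus strand) and chr2:119351009-119351096 (plus strand) in GRCm38.p6. Of 28 members with a RefSeq window 11 held the core on either strand, against 4.511% of all genes with a window. Among these 11 were 5 of the 16 that rose and 1 of the 2 that fell, Atf3. The rest of the 11 were not called, so the core was not particular to members that rose. Slc7a11, a member of the glutathione list too, holds 2 matches on opposite strands. No match in this list shared bases with another element searched here.

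The median of the ATF4 list was 0.455. Asns, which makes asparagine, stood at 10.2, 10.8, 10.9 and 11.1 CPM in H_C and at 23.6, 21.996, 25.6 and 21.8 CPM in H_O (1.11 ± 0.10). Chac1, which degrades glutathione, had few counts, at 0.701, 1.26, 1.36 and 1.45 CPM and 3.11, 1.66, 3.93 and 1.85 CPM (1.14 ± 0.32), and was not called without H_O replicate 3 (adjusted p = 0.0681). The serine synthesis genes Psat1 (0.49 ± 0.13) and Phgdh (0.96 ± 0.15) and the stress hormone gene Gdf15 (0.91 ± 0.07) rose, although 47.8% of the 50-base stretches of Phgdh also occur elsewhere. Atf5 (0.68 ± 0.08) rose, Atf4 itself was not called (-0.04 ± 0.07, adjusted p = 0.734), and 2 factors of the stress response fell: Atf3, from 358, 356, 346 and 366 CPM to 198, 182, 201 and 208 CPM (-0.85 ± 0.09), and Ddit3 (-0.47 ± 0.09), which encodes CHOP. Chaperones of the endoplasmic reticulum rose by small amounts, 10 of 20 with none lower, such as Hyou1 (0.41 ± 0.04), Pdia6 (0.42 ± 0.05) and Pdia4 (0.41 ± 0.06), and the factor gene Xbp1 (0.36 ± 0.04). With RLE size factors, DESeq2, limma-voom, the stricter filter, the replicate block, the 8 libraries alone or without L_C replicate 4, 1 member fell.

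Type I interferon acts through response elements with the core GAAANNGAA, and of 41 tested genes that it induces 21 fell and none rose. Promoter stretches of 3 members that fell and hold this core are shown with the matches in capitals.
Oas3: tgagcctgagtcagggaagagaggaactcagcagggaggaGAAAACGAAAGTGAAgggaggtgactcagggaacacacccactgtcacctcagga
Rsad2: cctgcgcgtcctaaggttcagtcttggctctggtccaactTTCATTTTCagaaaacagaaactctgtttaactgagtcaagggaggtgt
Ifit1: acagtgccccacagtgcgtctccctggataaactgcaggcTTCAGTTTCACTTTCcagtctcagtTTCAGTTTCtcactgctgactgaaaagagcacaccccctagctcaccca

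They lie at chr5:120777680-120777774 (minus strand), chr12:26456523-26456611 (minus strand) and chr19:34640740-34640853 (plus strand) in GRCm38.p6. Of 29 members with a RefSeq window 18 held the element on either strand, against 9.761% of all genes with a window. Among these 18 were 8 of the 14 that fell. The rest of the 18 were not called, so the element was not particular to members that fell. Of the 35 matches in this list 3 shared bases with another element searched here. The pair of matches in Oas3 and the first pair in Ifit1 overlap.

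The median of these interferon-stimulated genes was -0.362, and 24 fell without H_O replicate 2. Oas3, a sensor of double-stranded RNA, stood at 143, 149, 149.9 and 145 CPM in H_C and at 51.4, 53.8, 54.2 and 45.3 CPM in H_O (-1.52 ± 0.08). Rsad2, which encodes the antiviral enzyme viperin, stood at 34.9, 43.3, 41.3 and 46.5 CPM and 15.8, 16.5, 15.6 and 17.2 CPM (-1.35 ± 0.11), and Ifit1 at 6.07, 9.23, 7.32 and 6.47 CPM and 4.399, 4.63, 4.69 and 3.81 CPM (-0.73 ± 0.16). These 3 genes separated all H_O from all H_C libraries. Irf7 (-0.62 ± 0.12), the factor that amplifies the response, fell. Ifit2 had a library far from the rest, H_O replicate 4: H_O stood at 18.4, 28.4, 19.03 and 0.911 CPM against 56.1, 68.8, 76.4 and 66.2 CPM in H_C (-2.01 ± 0.64, adjusted p = 0.0296). Its fall was not called by DESeq2 (adjusted p = 0.0594), nor without H_C replicate 2, 3 or 4 or without H_O replicate 1 or 3 (adjusted p = 0.0571, 0.0588, 0.0546, 0.0623 and 0.0605), and without H_O replicate 4 the change was -1.61 ± 0.53.

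H_O replicate 2 stood apart in GTPases that interferon gamma induces and that attack vacuoles of pathogens. Of 17 tested 6 fell and none rose, with a median of -0.628 and all 17 values negative. Without H_O replicate 2, 12 fell, and without H_O replicate 1 or without H_O replicate 4, 3 fell. Gbp2 stood at 83.6, 82.99, 114 and 90.6 CPM in H_C and at 29.6, 62.2, 38.4 and 33.7 CPM in H_O (-1.18 ± 0.25), and Gbp3 at 42.9, 49.7, 57.9 and 54.7 CPM and 23.5, 31.3, 26.5 and 24.1 CPM (-0.96 ± 0.13). Iigp1, at 14.2, 14.95, 22.2 and 16.8 CPM in H_C and 6.08, 28.1, 9.73 and 6.92 CPM in H_O, was higher in H_O replicate 2 than in any control, and was called without that library alone (log2 fold change -1.17 ± 0.32, adjusted p = 0.0153).

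Genes of antigen presentation by class I molecules fell broadly. Of 22 tested genes 20 fell and none rose, with a median of -0.515, and all 22 values were negative. H2-K1, a classical class I heavy chain, stood at 3101, 3086, 2977 and 3014 CPM in H_C and at 2084, 2585, 2241 and 2029.98 CPM in H_O (-0.45 ± 0.10). B2m, the light chain, went from 4126, 4017, 4267 and 4177 CPM to 2835, 3414, 3134 and 2881 CPM (-0.44 ± 0.11). Tapbp, which loads peptides, went from 507, 502, 538 and 492 CPM to 275, 384, 328 and 289 CPM (-0.68 ± 0.09). H_O replicate 2 was the highest H_O library of these 3 genes, and was still below every H_C library. The peptide transporter gene Tap1 (-0.61 ± 0.16) and the non-classical genes H2-Q6 (-1.39 ± 0.12) and H2-M2 (-2.27 ± 0.31) fell, and 35.0% of the 50-base stretches of H2-Q6 also occur elsewhere. H2-M2 stood at 1.61, 4.599, 2.699 and 1.82 CPM in H_O against 11.8, 12.3, 13.3 and 14.3 CPM in H_C.

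Class II genes fell in part. Of 15 genes of class II presentation and costimulation 5 fell and 2 rose, and 7 fell without H_O replicate 2. Cd74, the invariant chain, stood at 1929, 2017, 2173 and 2111 CPM in H_C and at 903, 1582, 1121 and 888 CPM in H_O (-0.87 ± 0.16), and H2-Aa at 421, 483, 530.3 and 503 CPM and 171, 375, 214 and 158 CPM (-1.08 ± 0.21). Without H_O replicate 2 the changes were -1.08 ± 0.13 and -1.42 ± 0.16. Ciita, the master factor of class II, was not called with all libraries (-0.23 ± 0.24, adjusted p = 0.565), with 12.6, 29.1, 17.4 and 11.03 CPM in H_O against 18.97, 21.2, 21.3 and 20.5 CPM in H_C. It was called without H_O replicate 2 (-0.59 ± 0.19, adjusted p = 0.0338). The checkpoint ligand gene Cd274 (-0.81 ± 0.07), which encodes PD-L1, fell, and the costimulator genes Cd80 (0.70 ± 0.10) and Icosl (1.66 ± 0.22) rose. Cells other than macrophages that carry class II are B cells and dendritic cells. The 6 B cell markers in the table summed to 1.42 to 2.44 CPM in H_C and 1.501 to 1.72 CPM in H_O, with none called, and the 8 dendritic cell markers to 3.51 to 5.89 and 2.87 to 3.63 CPM, with 1 lower, Clec9a, a call lost without most single libraries. Their part in the class II result was not tested.

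**Figure D4:**
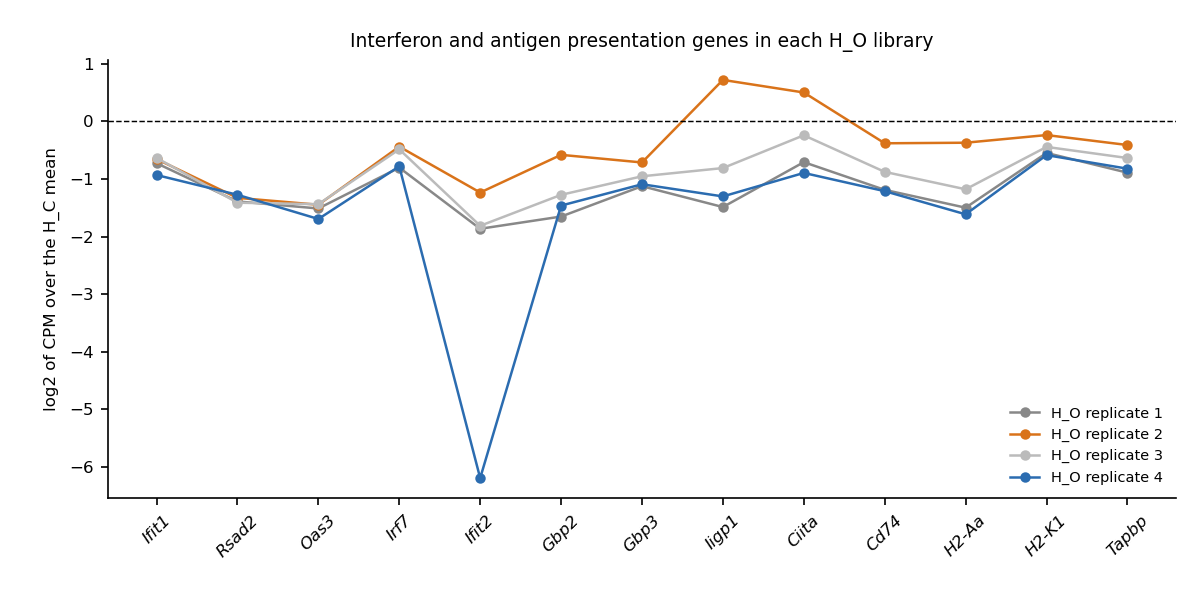
Level of 13 genes of interferon response and antigen presentation in each of the 4 H_O libraries relative to the H_C mean (log2 scale, y axis), with 1 line per library. H_O replicate 2 is the highest line for every gene from Irf7 to Tapbp, and H_O replicate 4 lies far below the others for Ifit2.

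Receptors for chemoattractants guide macrophages to sites of injury. Of 16 chemoattractant receptors 5 rose and 5 fell. Ccr1, the receptor of several CC chemokines, rose from 45.02, 45.9, 48.6 and 45.8 CPM to 98.95, 116, 102 and 106 CPM (1.19 ± 0.07), and C5ar1, the receptor of complement fragment C5a, from 69.5, 70.03, 80.5 and 77.2 CPM to 161, 156, 156 and 172 CPM (1.12 ± 0.07). Fpr1, which senses bacterial formyl peptides, had fewer counts, at 1.34, 1.66, 2.07 and 2.47 CPM and 5.58, 10.04, 7.796 and 5.81 CPM (1.95 ± 0.30). In these receptors the H_O libraries lay wholly above H_C. Fpr2 rose by 1.25 ± 0.32 with H_O replicate 2 at the top of 6.61, 20.998, 6.54 and 7.78 CPM, and by 0.66 ± 0.21 without it, against 4.27, 4.94, 4.12 and 4.35 CPM in H_C. Falls included those of Ccr2 (-1.04 ± 0.22), the receptor that recruits monocytes, and Cxcr4 (-0.32 ± 0.08).

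Among 18 chemokine genes 3 rose and 3 fell, or 5 without L_C replicate 4. Ccl2, the ligand of CCR2, rose from 2.71, 3.33, 5.71 and 2.21 CPM to 10.9, 11.9, 10.004 and 12.4 CPM (1.69 ± 0.29), and Ccl9, a ligand of CCR1, from 20.4, 20.5, 22.99 and 18.1 CPM to 53.5, 39.9, 45.5 and 53.6 CPM (1.23 ± 0.16). Ccl5, another ligand of CCR1, fell from 35.3, 32.4, 38.4 and 31.5 CPM to 11.2, 15.5, 12.5 and 10.1 CPM (-1.48 ± 0.13). Transcripts of ligand and receptor thus moved the same way for CCL9 with CCR1, and opposite ways for CCL5 with CCR1 and for CCL2 with CCR2. Of 30 genes of cytokines and NF-kB feedback 6 rose and 6 fell. Tnf stood at 5.34, 5.46, 5.33 and 5.22 CPM in H_C and at 8.93, 9.33, 11.1 and 7.88 CPM in H_O (0.80 ± 0.14), and Il1rn, which blocks the interleukin 1 receptor, rose by 0.57 ± 0.15. Il1b, the gene of interleukin 1 beta, was at the edge of detection, at 0.0915, 0.204, 0.128 and 0 CPM in H_C and 0, 0.342, 0.136 and 0 CPM in H_O, and was not called (adjusted p = 0.958). The NF-kB subunit gene Relb (-0.64 ± 0.11) and the adaptor gene Traf1 (-0.83 ± 0.12) fell. Among Toll-like receptor and inflammasome genes 6 of 27 rose and 7 fell, with the inflammasome gene Nlrc4 (0.77 ± 0.09) higher and the lipopolysaccharide co-receptor gene Cd14 (-0.31 ± 0.07) lower.

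Of 17 genes of complement and its fragment receptors 5 rose and 5 fell. The 3 chains of C1q, which starts the classical pathway, rose: C1qa from 87.1, 97.4, 94.1 and 80.5 CPM to 147, 197, 187 and 151 CPM (0.93 ± 0.09), C1qb by 0.498 ± 0.07 and C1qc by 0.56 ± 0.07. Of the alternative pathway, C3 fell from 228, 242, 271 and 245 CPM to 114, 218, 144 and 125 CPM (-0.72 ± 0.15) and Cfb by a log2 change of -0.56 ± 0.12, while properdin, Cfp, rose by 0.80 ± 0.06. H_O replicate 2 was again nearest to the controls for C3. Cfb shares 73.0% of its 50-base stretches with a read-through transcript, so its value is uncertain.

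Of 16 scavenger receptors 6 rose and 3 fell, or 1 with no scaling beyond library totals. Msr1, the class A scavenger receptor, stood at 217, 237, 243 and 235 CPM in H_C and at 424, 444, 401 and 404 CPM in H_O (0.84 ± 0.06). Stab1, which takes up modified lipoproteins and is also found on sinusoidal endothelium, stood at 94.8, 100.3, 109 and 101 CPM and 291, 276, 291 and 284 CPM (1.495 ± 0.06). Mrc1, the mannose receptor, stood at 248, 250.2, 261 and 268 CPM and 582, 503, 547 and 556 CPM (1.09 ± 0.05). In the 3 genes the groups lay far apart. Olr1, which encodes the ox-LDL receptor LOX-1 of endothelium, had few counts, at 2.07, 1.81, 1.61 and 1.65 CPM in H_C and 0.448, 1.104, 1.14 and 1.26 CPM in H_O, and was not called (-0.85 ± 0.33, adjusted p = 0.0795). It was called by DESeq2 (adjusted p = 0.0494).

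Of 18 C-type lectin receptors 7 rose and 8 fell. Of receptors for fungi and dead cells, Clec4d (0.66 ± 0.05), a neighbour of Clec4n in the genome, rose with it, while Clec7a, the beta-glucan receptor Dectin-1, fell from 1163, 1235, 1199 and 1218 CPM to 767, 814, 758 and 726 CPM (-0.65 ± 0.05) and Clec4e, the receptor Mincle, by a log2 change of -0.75 ± 0.16. Clec12a, an inhibitory receptor for uric acid crystals, fell from 157, 167, 169 and 170.1 CPM to 76.8, 94.9, 83.03 and 78.5 CPM (-0.99 ± 0.06). Of 16 Siglec and Fc receptors 3 rose and 2 fell, or 4 with the 8 libraries alone or without H_O replicate 2 or L_C replicate 4. Cd33, a sialic acid receptor, rose from 144, 137, 149 and 149 CPM to 289, 328, 305 and 313 CPM (1.09 ± 0.09). Among genes for the uptake of dying cells 6 of 16 rose and 8 fell. Between 4 and 5 fell with no scaling beyond library totals and without H_C replicate 2, H_O replicate 1, H_O replicate 3 or H_O replicate 4. The bridging proteins parted: Gas6 stood at 108, 112, 105 and 109.7 CPM in H_C and at 353, 327, 347 and 333 CPM in H_O, and Mfge8, which links phosphatidylserine to integrins, at 569.7, 509, 504 and 527 CPM and 172, 153, 169 and 178 CPM (-1.65 ± 0.06). Of the receptors of GAS6, Axl fell (-0.33 ± 0.08) and Mertk was not called (-0.11 ± 0.05, adjusted p = 0.133), although it was without L_C replicate 4 (adjusted p = 0.00659).

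Integrins fell more often than they rose, 8 of 14 against 2. Itgax, the CD11c chain, fell from 589, 591, 594 and 609.8 CPM to 298, 256, 291 and 319 CPM (-1.03 ± 0.06). Itgam, the CD11b chain, rose from 504, 529.8, 494 and 491 CPM to 808, 909, 820.4 and 794 CPM (0.72 ± 0.05), with H_O replicate 2 highest, and it shares 66.3% of its 50-base stretches with an overlapping gene model. The alpha chains of 2 related receptors thus moved in opposite directions. Of 27 matrix proteases and inhibitors 4 rose, or 7 with the 8 libraries alone, and 6 fell, and of 24 genes of secreted matrix 3 rose, or 6 without H_C replicate 3 or with the 8 libraries alone and 5 without L_C replicate 4 or with no scaling beyond library totals, and 6 fell. The enzyme gene Lox, which cross-links collagen, fell from 5.46, 7.91, 14.4 and 10.6 CPM to 2.34, 3.86, 2.13 and 4.31 CPM (-1.60 ± 0.30). Its highest value was in H_C replicate 3, the library richest in the markers of mesothelial cells and fibroblasts, and the part of those cells was not tested. Thbs1 (0.86 ± 0.11), a matrix protein that binds CD36, rose, as did the surface protease gene Adam8 (0.54 ± 0.05), and Adam19 (-1.27 ± 0.18) fell.

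Lysosomal genes fell by small amounts. Of 34 cathepsins and hydrolases 15 fell and 3 rose, and of 31 genes of the lysosomal membrane, proton pump and MiT factors 13 fell and 4 rose. Without L_C replicate 4, 7 members of each list rose, with no scaling beyond library totals 6 and 7 did, with the 8 libraries alone 6 of the first did, and 2 genes of the membrane list rose when any library of H_C or H_O other than the replicates numbered 2 was left out. Ctss, a cathepsin of antigen processing, stood at 12545, 12298, 12810.2 and 12435 CPM in H_C and at 8599.9, 10278, 9305 and 8647 CPM in H_O (-0.44 ± 0.06). Atp6v0d2, a proton pump subunit of macrophages and osteoclasts, fell from 1061, 1067, 1035 and 1068 CPM to 658, 568, 603 and 663 CPM (-0.76 ± 0.05). Every H_O library was below H_C for both. Gpnmb (-0.43 ± 0.07), a membrane glycoprotein of lipid-laden macrophages, fell, as did the MiT factor genes Tfeb (-0.33 ± 0.06) and Mitf (-0.33 ± 0.06), whose products drive lysosomal genes.

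Of 32 ribosomal protein genes 14 fell and none rose, with a median of -0.212, and 24 fell without L_C replicate 4 and 23 with the 8 libraries alone. Rpl4 stood at 869, 887, 867 and 831 CPM in H_C and at 634, 672, 662 and 628 CPM in H_O (-0.41 ± 0.04). Of 23 genes of the TCA cycle 8 rose and none fell. This count was 17 without L_C replicate 4, 16 with no scaling beyond library totals, 15 with the 8 libraries alone and 4 to 5 without H_C replicate 2, H_C replicate 3 or H_O replicate 3. Suclg2 (0.72 ± 0.11) and Idh3a (0.31 ± 0.07) were among them. Of 28 nuclear genes of oxidative phosphorylation 6 rose, or 14 without L_C replicate 4 and 11 with the 8 libraries alone, and of 13 mitochondrial ones none was called, or 2 rose in both of these settings. In glycolysis 6 of 24 rose, or 10 with no scaling beyond library totals, and 4 fell. Pkm, the last step, rose from 1227, 1136, 1173 and 1164 CPM to 1725, 1807, 1767 and 1700.3 CPM (0.57 ± 0.04), and Hk3, a hexokinase of white blood cells, fell from 923, 920.1, 915 and 920.04 CPM to 623, 662, 661 and 629 CPM (-0.51 ± 0.08). The enolase genes parted, with Eno1 (0.61 ± 0.05) higher and Eno2 (-1.02 ± 0.11) lower. Of the 50-base stretches of Pkm and Eno1 25.8% and 26.0% also occur elsewhere. Among hypoxia genes 4 of 20 rose and 5 fell, and the collagen hydroxylase gene P4ha2, from 2.53, 1.96, 3.48 and 2.29 CPM to 13.7, 11.5, 9.895 and 10.5 CPM (2.15 ± 0.18), rose while Ndrg1 (-0.77 ± 0.11) fell. Both groups had the same high glucose, and of 15 genes of the osmotic stress factor NFAT5 6 rose, or 3 without H_C replicate 2, and 4 fell. Among them the glycine carrier gene Slc6a9 (1.44 ± 0.30) rose and the kinase gene Sgk1 (-0.55 ± 0.05) fell. Of 15 genes of glucose sensing and the hexosamine pathway 2 rose and 3 fell, with the alpha-arrestin gene Arrdc3 (-0.87 ± 0.15) lower. Txnip, an alpha-arrestin that binds thioredoxin and responds to glucose, stood at 189.6, 198, 191 and 187 CPM and 175, 169, 168 and 179.7 CPM, a small fall without overlap (-0.15 ± 0.05, adjusted p = 0.0458). That call was lost with upper-quartile or no scaling, no filter or the replicate block (adjusted p = 0.0606, 0.331, 0.0573 and 0.0683), and without any library of either group but H_O replicate 4 (adjusted p = 0.0611 to 0.129). Of its 50-base stretches 15.7% also occur in a gene model on the other strand.

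Factors and markers of macrophage identity moved too. Markers of all macrophages split, with 3 of 9 higher and 2 lower, or 4 lower with the 8 libraries alone and 5 lower without L_C replicate 4. Of 27 transcription factors 4 rose and 10 fell. Maf rose from 134, 130.3, 134 and 131 CPM to 227, 212, 243 and 244 CPM (0.81 ± 0.08), and Id3, which resident macrophages of several tissues need, fell from 13.3, 10.1, 12.8 and 9.87 CPM to 3.56, 2.63, 2.92 and 3.54 CPM (-1.86 ± 0.23). Irf8 (-0.42 ± 0.07) and Cebpb (-0.40 ± 0.07) fell. Of 15 markers of large peritoneal macrophages 8 fell and 1 rose, with summed levels of 1352 to 1545 CPM in H_C and 1101 to 1185 CPM in H_O. F10, which encodes coagulation factor X, fell from 162, 164, 156 and 151 CPM to 71.7, 74.9, 72.8 and 67.6 CPM (-1.14 ± 0.05). Gata6, the factor that defines these cells, was low and not called, at 3.93, 4.67, 5.73 and 3.71 CPM in H_C and 2.66, 3.57, 3.11 and 5.19 CPM in H_O. Of 11 markers of small macrophages and monocytes 4 fell, with sums of 823 to 858 and 418 to 447 CPM, mostly Itgax and Clec12a. Of 15 markers of alternative activation 3 rose and 4 fell. Arg1, an arginase, fell from 5.61, 8.12, 8.37 and 5.28 CPM to 2.397, 4.36, 2.83 and 1.92 CPM (-1.25 ± 0.29) while the receptor gene Il4ra rose (0.52 ± 0.05).

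Markers of other cells were low, and some of them have no entry in the table and were not analysed here. The 10 T and NK cell markers in the table summed to 7.44 to 11.7 CPM in H_C and 5.66 to 8.15 CPM in H_O, with 1 lower, Cd8a, a call lost without most single libraries. The 3 mast cell and basophil markers summed to 0.292 to 1.62 and 0.409 to 0.815 CPM, with none called, and the 5 erythroid and platelet markers to 10.7 to 13.9 and 9.02 to 16.5 CPM, with none called. The 5 neutrophil markers summed to 109 to 116 and 66.03 to 75.5 CPM, with 2 lower, nearly all from Csf3r, which macrophages also express, while S100a8 stood at 3.75, 3.59, 3.303 and 2.47 CPM and 4.69, 4.68, 4.03 and 3.91 CPM and was not called. These values stand beside the rise of Mmp8, and their part in it was not tested. The 3 eosinophil markers summed to 19.7 to 23.6 and 4.704 to 5.76 CPM, all but a trace from Siglecf, at 23.6, 19.5, 22.99 and 21.8 CPM in H_C and 5.72, 4.704, 4.82 and 5.71 CPM in H_O. Of 11 tested markers of mesothelial cells and fibroblasts none was called with all libraries, 2 were higher without H_C replicate 3, and 1 was lower without H_O replicate 4.

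The change with ox-LDL in high glucose was then set against the change in low glucose, from other libraries, by the interaction term of the same fit. It passed the threshold in 2 of 13527 entries (0.0148%). Ccr1 rose by 1.19 ± 0.07 in high and 0.54 ± 0.07 in low glucose, a difference of 0.65 ± 0.10 (edgeR adjusted p = 0.0381). Its levels in low glucose were 74.6, 75.2, 85.6 and 87.3 CPM in L_C and 130.04, 120.01, 116 and 103 CPM in L_O. Gas6 rose by 1.65 ± 0.05 in high and 2.11 ± 0.05 in low glucose, a difference of -0.46 ± 0.07 (adjusted p = 0.0381), with 61.2, 61.5, 60.9 and 70.5 CPM in L_C and 260.5, 274, 291 and 269 CPM in L_O. Both calls were lost with limma-voom (adjusted p = 0.0553 for each) and without any library of H_O, among others. The number of entries with a called positive and with a called negative difference (high minus low glucose) was 78 and 17 with DESeq2, 0 and 0 with limma-voom, 18 and 3 without L_C replicate 1, 41 and 12 without L_C replicate 4 and 17 and 2 without L_O replicate 1. Since the label of L_O names no mannitol, glucose and mannitol cannot be told apart in this difference. Without adjustment 729 entries (5.39%) had a positive and 432 (3.19%) a negative difference at p below 0.05. The 17 interferon-inducible GTPases had a median difference of 0.886, 17 of 17 above 0, and the 15 class II genes one of 0.809, 14 of 15 above 0, so that their values were mostly less negative or more positive in high glucose than in low. None of these was called with all libraries (smallest adjusted p 0.0832 and 0.105), and without H_O replicate 2 the medians were 0.684 and 0.662. Without L_C replicate 4 the difference was called in 1 of the GTPases and in 2 of the class II genes (smallest adjusted p 0.0384 and 0.0450), all positive, with medians of 0.856 and 0.816. Glutathione and sterol genes had medians of the difference of 0.00986 and 0.0723, with none called. Positive medians were not particular to the GTPases and class II genes. They were 0.998 for B cell markers (3 of 4 above 0) and 0.741 for mesothelial and fibroblast markers (9 of 11). Secreted matrix genes had 0.534 (19 of 24) and chemokines 0.478 (16 of 18), with none called in these lists. Ribosomal protein genes had -0.127 (3 of 32 above 0).

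**Figure D5:**
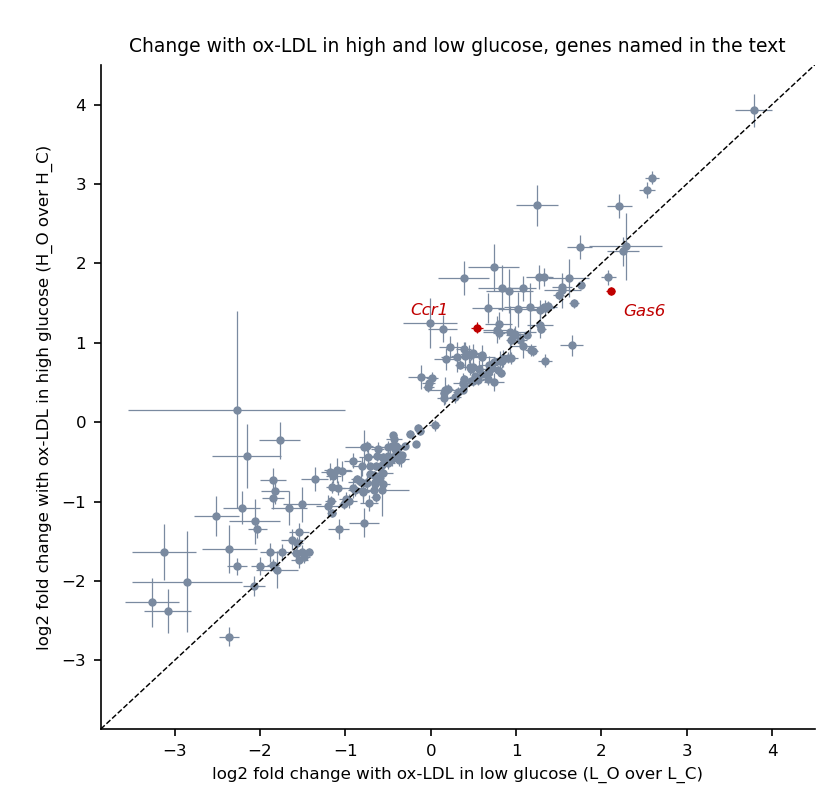
Log2 fold change with ox-LDL in high glucose (y axis) against low glucose (x axis) for the genes named in the text, with standard errors as bars and the line of equal change dashed. Ccr1 and Gas6, the genes with a called difference, are marked in red, Ccr1 above the line and Gas6 below it.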

How the data were processed

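Total RNA of 16 libraries was sequenced. Read counts per gene entry, whole numbers and not normalized, are as deposited by the authors; HISAT2, DESeq2 and the build mm10 come from the submitters' processing notes, and the counting tool, annotation and strand setting are not given in the sources used here. The table holds 15871 entries, of which 1594 are unannotated. edgeR 4.0.16 (R 4.3.3) fitted all 16 libraries by group with TMM factors and filterByExpr, which left 13527 entries and 12 residual degrees of freedom, and tested H_O against H_C and the interaction with glucose by the quasi-likelihood F test at a Benjamini-Hochberg adjusted p of 0.05. CPM use TMM library sizes. Scripts were tested on simulated data. Alternatives were RLE, upper-quartile or no scaling, other filters, DESeq2 1.42.0, limma-voom 3.58.1, a replicate block, the 8 libraries alone and leaving out single libraries.

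Members and gene lists were chosen with earlier results of these data known. Genes named are the 15 largest rises and falls without overlap whose mean log2 CPM reached 3, up to 4 members per list with the smallest adjusted p, 10 further genes (Hmox1, Tnf, Cd36, Il1b, Abcg1, Olr1, Txnip, Msr1, Plin2, Abca1) and genes with a called interaction; of 201 genes, 132 follow this rule and 69 were chosen after their values were seen. Over 10% of 50-base stretches are shared with other transcripts in 27 of the 201, those given in the text and Ccne2, Cd274, Cebpb, Csf1r, Csf2rb, Etv5, Fpr2, Hmgcs1, Mcm7, Ncoa4, Pcna, Rpl4, Slc6a9, Suclg2, Tapbp and Uhrf1, and 38 overlap an exon of a gene on the other strand, so these values are uncertain. Gene positions are from GENCODE vM21 and promoters from RefSeq. Some list members are counted but not reported by name here.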

Additional observations from a re-analysis of the deposited data

Results flagged for a closer look

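Among 406 groups of 4 libraries checked gene by gene, 17 held a library far from the other 3. Chance gives about 1 in 20, so the flags were no more frequent than that, and a single flag carries little weight. Of the 17 flags 12 concerned H_O replicate 2. It was the highest of H_O for Acod1 (85.96 CPM), Clec4e (203 CPM), Fpr2 (20.998 CPM), Htra1 (6.73 CPM), Iigp1 (28.1 CPM), Mki67 (37.7 CPM), Prdx1 (1746 CPM), Sgk1 (496 CPM), Slamf8 (62.6 CPM) and Srebf2 (154 CPM), and the lowest for Cat (361 CPM) and Hilpda (15.3 CPM). H_O replicate 3 was the highest for G6pdx (282 CPM). In H_C, replicate 3 was the highest for Dusp6 (9.45 CPM) and replicate 1 for Gpx3 (40.6 CPM), while replicate 1 was the lowest for Lpcat3 (30.5 CPM) and replicate 2 for Eno1 (257 CPM).

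A difference of the change with ox-LDL between high and low glucose was called for Ccr1 (difference of log2 fold changes 0.65 ± 0.10) and Gas6 (-0.46 ± 0.07), by the interaction term of edgeR with adjusted p = 0.0381 and 0.0381. Both calls were lost with limma-voom (adjusted p = 0.0553 for each), with the replicate block (adjusted p = 0.137 for each) and without any single H_O library. Glucose and mannitol cannot be told apart in this difference, since the label of L_O names no mannitol.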

How the results depend on the processing

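With no scaling beyond library totals 2176 entries rose instead of 1406, and Atf4, not called with TMM, changed sign to 0.0238 ± 0.0738. Il1b, not called and at the edge of detection, changed sign to -0.662 with limma-voom, -0.119 with the replicate block and, with single libraries left out, ranged from -1.2005 to 0.656, -0.244 without H_C replicate 4. The counts of entries that rose, fell, rose at least 2-fold and fell at least 2-fold lay within 1.5 times those reported under every other setting that kept all libraries of both groups, and between 1146 and 1964, 1320 and 2001, 149 and 191, and 172 and 213 when single libraries were left out. The count of entries with a positive difference between the changes in high and low glucose was 1 and went to 78 with DESeq2, 0 with limma-voom and 0 with the replicate block, and from 0 to 41 with a library left out. Entries with a negative difference numbered 1 and went to 17, 0 and 0, and from 0 to 12. Same-numbered libraries gave no clear sign of deviating together (r = 0.194, -0.0514, -0.0251 and -0.166 for numbers 1 to 4, over 0.1 in 1 of 4 pairs, and 1 of 8 libraries correlated best with its own number). A check of 4 pairs cannot exclude that the numbers pair the samples. With the replicate block 1348 rose and 1525 fell.

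Of 191 called genes named in the text 186 kept their call under all 18 alternatives, the others being Abcg1, Chac1, Ifit2, Mcm7 and Txnip. Most of these genes were picked for a small adjusted p, for a large change or after their values were seen. The count therefore does not describe called entries in general. Of 2016 counts of list members under alternatives 94 moved by more than 1.5 times, including the fatty acid synthesis list (2 higher with DESeq2), matrix proteases (7 higher with the 8 libraries alone) and mitochondrially encoded genes (2 higher without L_C replicate 4). Totals of 33369823 to 39305957 counts limit genes below about 1 CPM, such as Clec9a.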
